A study of Homo sapiens with 6 samples.

Results

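Genes of glycolysis and of the cellular response to low oxygen were compared in NCI-H292, a human lung carcinoma cell line, with and without the cancer/testis gene CT45A1. The set held 40 genes, taken as every probe set on the array whose annotation gave 1 of these symbols alone. Such probe sets were found for 37 of the 40 genes, 90 probe sets in all out of 54675 on the array, and SLC16A1, SLC16A3 and CA9 were not analysed here. Of the 37 genes, 35 had a probe set bright enough to test, and EGLN3 and ANGPTL4 had only dim ones. In the CT45A1 overexpression group (n = 3 arrays) the cells stably carried CT45A1 fused to Venus, a fluorescent protein, and in the CT45A1 negative group (n = 3 arrays) they carried Venus alone. Both groups were grown in the same serum-containing medium. The labels give no hypoxic treatment, do not say whether the cells were a clone or a pool, and do not say that replicates were separate cultures. The p-values therefore measure array-to-array spread, part or all of which may be technical. The signal quoted throughout is MAS5's summary of a probe set on a linear scale.

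Glycolysis splits glucose into pyruvate in a chain of cytosolic enzymes, and tumour cells often run it at a high rate and turn the pyruvate into lactate even when oxygen is present. Many of its genes are also targets of the hypoxia-inducible factors (HIF), whose alpha subunits are marked for destruction by oxygen-dependent prolyl hydroxylases and accumulate when oxygen is scarce. The HIF proteins are controlled mainly after translation, so the transcript of a HIF subunit is not a measure of its activity, while the transcripts of its targets are widely used as a readout.

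As a check of the labels, the brighter of the CT45 probe sets, annotated to 9 genes of the CT45 family, gave values of 518, 700.1 and 445 on the CT45A1 overexpression arrays, against 23.1, 15.8 and 1.95 on the CT45A1 negative arrays, all 3 below the array median. All 10 epithelial markers examined were above the array median on all 6 arrays, while 7 of 10 fibroblast, 6 of 8 endothelial and 3 of 9 leukocyte markers were below it on every array. Above it on all 6 arrays were also 4 of the 9 leukocyte markers (LAPTM5, CD74, CD79A and ITGB2). The same held for 1 of the 10 fibroblast markers, FAP, at 846 to 1638. The summed signal of the epithelial markers was 81203 to 81712 with CT45A1 and 82099.8 to 87036 without it, and that of the fibroblast markers 1435 to 2007 with CT45A1 against 1028 to 1623 without. For the leukocyte markers the sums were 1550.5 to 1588 with CT45A1 against 1460.5 to 1662 without, and for the endothelial markers 416 to 528 with CT45A1 against 328 to 409 without. Of the endothelial markers, VWF, KDR, TEK, CLDN5, EMCN and ERG were below the median throughout, while CDH5 and PECAM1 were above it on all 6 arrays. CDH5 was higher on every overexpression array, by 0.79 (SE 0.25, limma adjusted p = 0.115). Among the epithelial markers KRT18, a keratin of simple epithelia, fell with CT45A1 by 0.25 (SE 0.06, limma adjusted p = 0.0367), and ELF3, an epithelial transcription factor, lay higher on every overexpression array, by 0.87 (SE 0.27, limma adjusted p = 0.116). The part of these markers in the results was not tested. In bulk RNA, fewer cells with a transcript and less transcript per cell cannot be told apart.

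Few of the glycolysis and hypoxia response genes passed, about as few as among all genes. Among the 35 tested, 1 gene rose with CT45A1, 34 did not pass the threshold and none fell. The threshold was an adjusted p under 0.05 in limma with adjustment over all 11895 genes. Over all genes 3.83% were called, 1.94% upward and 1.89% downward, so the members' share was close to the background. Differences on the log2 scale, CT45A1 overexpression minus CT45A1 negative, ran from -0.42 to 0.51 among the members, with 17 above 0 and 18 below. Their median was -0.0032, against 0.0085 over all genes tested. None of the 35 differed by as much as 1.5-fold at its brightest probe set, while 694 of the 11895 genes tested differed by more than that. The 3 overexpression arrays lay wholly above the negative arrays for 3 members and wholly below for 5, while over all genes 27.2% were separated in this way, 13.4% above and 13.8% below. An unadjusted p under 0.05 was reached by 7 members, 3 higher and 4 lower, against 20.9% of all genes.

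The 95% interval of the difference, taken gene by gene without adjustment, stayed within 1.5-fold in either direction for 28 of the 35 members, against 69.7% of all genes. It stayed within 2-fold for 34 of the 35, against 89.5% of all genes, and the exception was ALDOC, whose interval reached 1.05 on the log2 scale. The median SE was 0.088 among the members against 0.114 over all genes tested, and a smaller SE gives a narrower interval. Averaged over the 35 members, log2 signal was 11.31, 11.36 and 11.30 for the CT45A1 arrays and 11.30, 11.26 and 11.35 for the vector arrays, so the groups overlapped. How the differences and the calls were split depended on scaling. After quantile normalization the members' median difference was 0.046, with 21 above 0 and 14 below. After cyclic loess it was 0.050, with 23 above and 12 below. The median over all genes tested was -0.0086 and -0.0071 in these 2 settings. After each array was centred on its median, which moved the median difference of all tested genes to -0.14, none of the members rose and 7 fell (PKM, HK2, SLC2A1, BNIP3, LDHA, LDHB and ALDOA), while 165 of all genes rose and 1650 fell, against 231 and 225 as deposited.

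**Figure D1:**
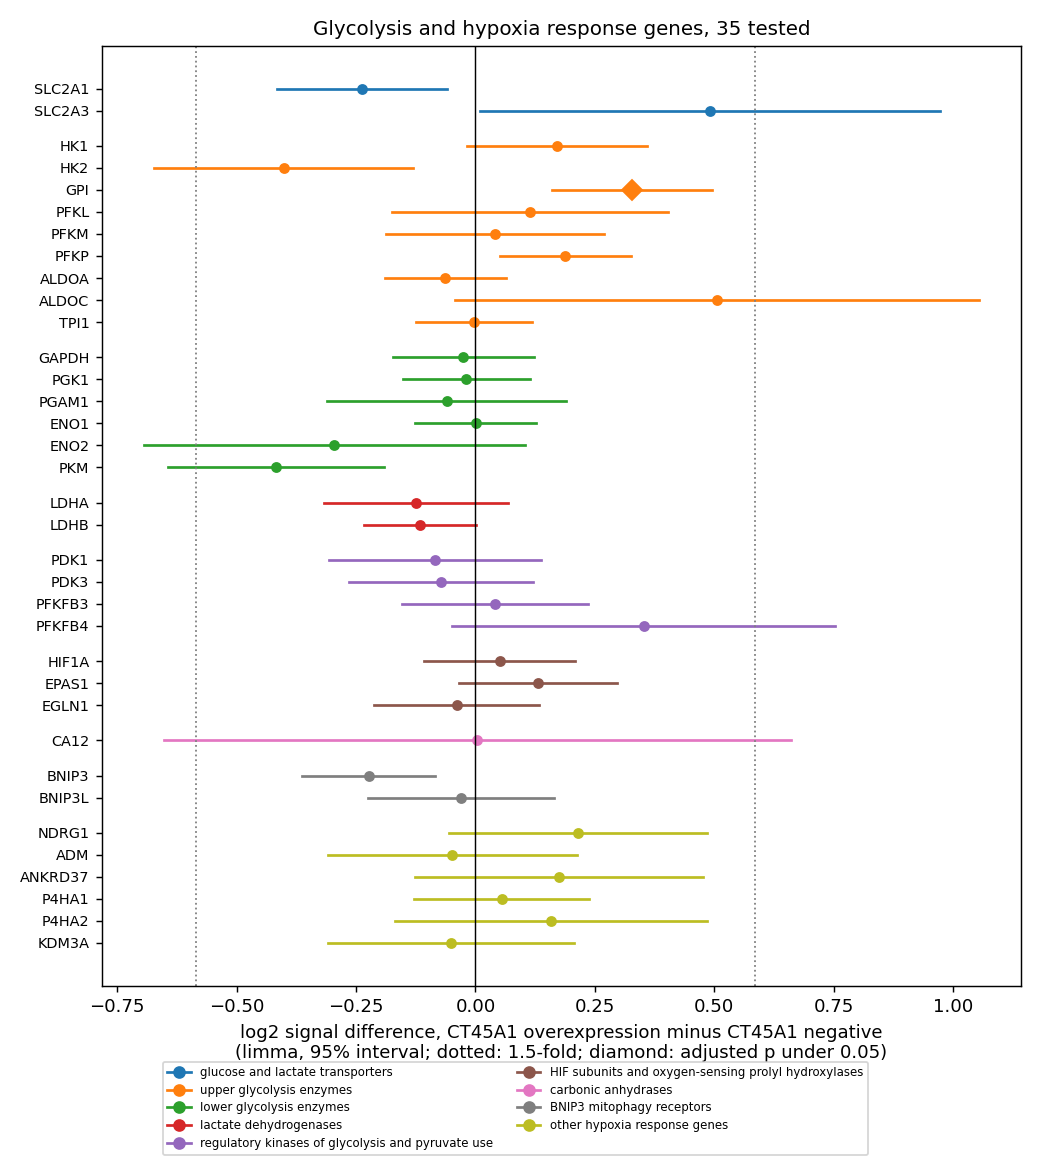
Difference in log2 signal, CT45A1 overexpression minus CT45A1 negative, for the 35 tested members, with limma's 95% interval (n = 3 arrays per group) and colours for their roles. Dotted lines mark a 1.5-fold difference, and all 35 points lie between them. GPI, drawn as a diamond, is the member with an adjusted p under 0.05.

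The members' promoters were searched for the core of the HIF binding site. HIF binds a short core, and the letters searched here were ACGTG and GCGTG on both strands, in the 250 bases before each annotated start in RefSeq's GRCh38.p14 set, where 36 of the 40 members had an entry. ACGTG or its complement CACGT was present before at least 1 start of 21 of the 36 members (58.3%), against 21.7% of 27305 genes with an entry and 28.7% of the 9718 tested genes with one. By window the shares were 37.5% of 64 member windows and 18.5% of 35116 windows. GCGTG or its complement CACGC was present in 34.4% of member windows and 32.2% of all windows. By gene it was present in 52.8% of members, 36.2% of all genes with an entry and 52.9% of tested genes with one. The set includes hypoxia response genes by choice, so its share of ACGTG describes the list and is no result of these arrays. A match is a description of letters, not evidence of binding in these cells. The 18 tested members with ACGTG had a median difference of -0.02 and the 14 tested members without it 0.0022. Below are the 250 bases before the start of GPI, the member that rose, of HK2 and BNIP3, whose brightest probe sets had lower signal on every overexpression array, and of PGK1 and LDHA, long-studied HIF targets, with ACGTG or CACGT in capitals. All run 5′ to 3′ on the gene's own strand, and for HK2 and LDHA, which have 2 annotated starts each, the start with more matches is shown.
GPI: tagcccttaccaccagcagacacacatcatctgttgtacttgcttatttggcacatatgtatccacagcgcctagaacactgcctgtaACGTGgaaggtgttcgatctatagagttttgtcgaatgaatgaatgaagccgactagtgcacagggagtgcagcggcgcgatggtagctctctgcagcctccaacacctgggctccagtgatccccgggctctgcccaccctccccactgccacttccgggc
HK2: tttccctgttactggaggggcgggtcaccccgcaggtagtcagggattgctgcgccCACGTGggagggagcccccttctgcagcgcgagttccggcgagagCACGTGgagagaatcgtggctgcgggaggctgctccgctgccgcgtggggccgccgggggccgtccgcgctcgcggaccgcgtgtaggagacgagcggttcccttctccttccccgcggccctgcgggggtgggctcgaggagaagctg
BNIP3: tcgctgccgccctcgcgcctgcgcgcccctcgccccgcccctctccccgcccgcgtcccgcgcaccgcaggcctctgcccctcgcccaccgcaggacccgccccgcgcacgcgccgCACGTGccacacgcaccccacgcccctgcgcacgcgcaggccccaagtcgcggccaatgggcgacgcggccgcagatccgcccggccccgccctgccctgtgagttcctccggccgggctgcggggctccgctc
PGK1: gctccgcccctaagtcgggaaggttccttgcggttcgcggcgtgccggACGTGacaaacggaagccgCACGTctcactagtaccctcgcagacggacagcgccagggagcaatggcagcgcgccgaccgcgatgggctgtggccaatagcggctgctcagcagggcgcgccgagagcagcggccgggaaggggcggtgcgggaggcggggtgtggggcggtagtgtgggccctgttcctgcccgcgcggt
LDHA: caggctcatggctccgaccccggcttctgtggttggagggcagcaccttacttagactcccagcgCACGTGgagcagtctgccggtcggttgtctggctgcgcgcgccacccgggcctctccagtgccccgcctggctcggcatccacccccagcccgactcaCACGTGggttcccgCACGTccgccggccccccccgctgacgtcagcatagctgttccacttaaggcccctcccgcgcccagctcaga
These windows lie at chr19:34364742-34364991 (plus strand, GPI), chr2:74834920-74835169 (plus, HK2), chr10:131981924-131982173 (minus, BNIP3), chrX:78103998-78104247 (plus, PGK1) and chr11:18394313-18394562 (plus, LDHA) of GRCh38.p14. ACGTG and CACGT overlap in CACGTG, which was counted as 1 stretch. GPI had 1 stretch of capitals, beginning 162 bases before the start. HK2 had 2, at 194 and 149 bases, BNIP3 had 1, at 134 bases, PGK1 had 2, at 202 and 183 bases, and LDHA had 3, at 185, 87 and 73 bases. PKM, SLC2A1 and LDHB also had lower signal on every overexpression array at their brightest probe sets. Their windows held neither motif.

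Glucose enters the cell through facilitated transporters. SLC2A1, the transporter that supplies most cells with glucose at rest, gave 1606, 1512 and 1763 on the CT45A1 arrays, against 1946, 1912 and 1887 on the vector arrays. Every overexpression array lay below every negative array, and the difference was -0.24 (SE 0.08, limma adjusted p = 0.137). Its dimmer probe set went the other way, at 157, 136 and 110.0 with CT45A1 against 98.9, 99.5 and 72.3 without it, a difference of 0.58 (SE 0.27, limma adjusted p over probe sets = 0.256). The direction for SLC2A1 therefore depended on the probe set, and the mean of both differed by 0.17 (limma adjusted p = 0.399). SLC2A3, a high-affinity transporter best known from neurons, gave 259, 238 and 166 with CT45A1, against 132, 175 and 160.1 without it. These arrays overlapped, at a difference of 0.49 (SE 0.22, limma adjusted p = 0.233). At the other SLC2A3 probe sets the arrays also overlapped, with differences of 0.43 (SE 0.34) and 0.10 (SE 0.20). A further 2 probe sets shared by SLC2A3 and SLC2A14 were not counted among the members, and their arrays overlapped too.

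In the upper stretch of the pathway, where hexokinases trap glucose and phosphofructokinase commits it, 1 of 9 enzymes rose and none fell, against 3.83% of all genes called, with 6 differences above 0 and 3 below. After centring on the array median none of the 9 rose, and HK2 and ALDOA fell. GPI, which converts glucose 6-phosphate into fructose 6-phosphate, was measured at 4788, 4912 and 5448 in overexpression cells, against 4009, 3769 and 4284 in negative cells. All 3 overexpression arrays were higher than all 3 negative ones. The mean log2 signal was 12.30 ± 0.10 with CT45A1 and 11.97 ± 0.09 without it (SD, n = 3 each), a difference of 0.33 (SE 0.08, limma adjusted p = 0.0423). That is 1.26-fold, with a 95% interval of 1.12 to 1.41. The call for GPI rested on single arrays. Leaving out any 1 array other than negative replicate 3 gave differences between 0.27 and 0.37 with limma adjusted p between 0.0866 and 0.132, and leaving out negative replicate 3 gave 0.38 (limma adjusted p = 0.0309). Without the variance trend its limma adjusted p was 0.206, and after centring on the array median the difference was 0.18 (limma adjusted p = 0.156).

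The brightest probe sets of the hexokinases differed in opposite directions, and neither passed. HK2, the inducible isoform of many tumours, read 1943, 2280.4 and 2542 with CT45A1 at its brightest probe set, against 3479.8, 2595 and 2877 in vector cells. The groups did not overlap, and the difference was -0.40 (SE 0.12, limma adjusted p = 0.110). A second HK2 probe set also lay lower, at 185, 188 and 181 in overexpression cells against 267, 274 and 235 in negative cells, by -0.48 (SE 0.15, limma adjusted p over probe sets = 0.115). The remaining one lay higher on every overexpression array, at 345, 261 and 405 in overexpression cells against 187, 169.7 and 246 in negative cells, by 0.74 (SE 0.20, limma adjusted p over probe sets = 0.0791). The mean of the 3 probe sets differed by -0.049 (limma adjusted p = 0.823). HK2 was singled out after these values were seen, and probe sequences, which would show what part of the transcript each probe set reads, were not used here. HK1, the isoform of most tissues, gave 2901, 3492 and 3262 with CT45A1, against 3051, 2710.4 and 2801 without it. Its arrays overlapped, at a difference of 0.17 (SE 0.09, limma adjusted p = 0.282).

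**Figure D2:**
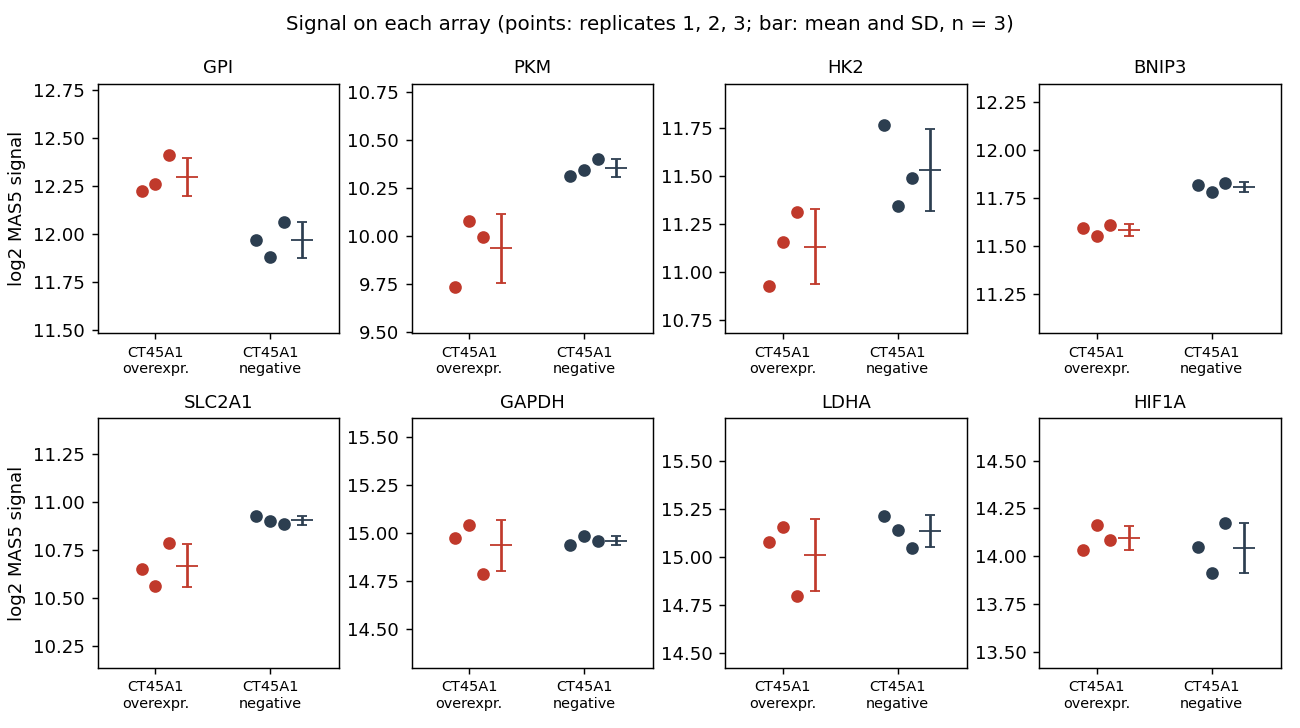
Log2 MAS5 signal of 8 members on each array, with replicates 1, 2 and 3 as points from left to right within a group and the mean with its SD (n = 3) beside them. All panels span 1.3 log2 units. The groups do not overlap for GPI, PKM, HK2, BNIP3 and SLC2A1, and they overlap for GAPDH, LDHA and HIF1A.

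Phosphofructokinase, the main control point of the pathway, is made of subunits encoded by PFKL, PFKM and PFKP. PFKP had 7836, 7339 and 7228 with CT45A1, against 6357, 6833 and 6472 without it, so every overexpression array was higher. The difference was 0.19 (SE 0.06, limma adjusted p = 0.128). PFKL and PFKM differed by 0.11 and 0.04, each with overlapping arrays. Aldolase splits the phosphorylated hexose, and its widespread form ALDOA differed by -0.06. ALDOC, the brain form, had 186, 122 and 148 with CT45A1, against 118, 90.5 and 109.6 without it. Every overexpression array was higher, and this was the largest difference among the members at 0.51, but the spread at this low signal was also large (SE 0.25, limma adjusted p = 0.275). TPI1, which interconverts the triose phosphates, gave 12759.6, 12794 and 12709.6 with CT45A1, against 12741, 12300.0 and 13328 without it, a difference of -0.0032 with a 95% interval of -0.12 to 0.12.

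None of the 6 enzymes from glyceraldehyde phosphate to pyruvate passed, and 5 of the 6 differences lay below 0. GAPDH, which couples oxidation of the triose to phosphate uptake and often serves as a reference gene, gave 32219, 33812 and 28325 with CT45A1, against 31444, 32408 and 31895 in vector cells. The overexpression arrays spanned the negative ones, and the difference was -0.02 (SE 0.07, limma adjusted p = 0.866), with 0.09 after quantile normalization and 0.11 after cyclic loess. Its other probe sets differed by -0.11 and -0.13, with every overexpression array below every negative one. PGK1, which makes ATP from the oxidised triose, differed by -0.02 at its brightest probe set, with a 95% interval of -0.15 to 0.11. Another PGK1 probe set lay higher on every overexpression array, by 0.16 (SE 0.07, limma adjusted p over probe sets = 0.246). At its remaining tested probe sets the groups overlapped, at -0.21 to 0.09. ENO1, the enolase of most cells, differed by 0.00029, with an interval of -0.13 to 0.13. PGAM1, the mutase before enolase, differed by -0.06, with an interval of -0.31 to 0.19. ENO2, the neuronal enolase, differed by -0.30 (SE 0.18), with overlapping arrays.

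PKM, the pyruvate kinase that makes the last ATP of the pathway, lay closest outside the threshold. It reached 851, 1079.8 and 1019.9 in overexpression cells, against 1271, 1297 and 1354 in negative cells. Every overexpression array was lower, and the mean log2 signal was 9.93 ± 0.18 with CT45A1 and 10.35 ± 0.05 without it (SD, n = 3 each). The difference was -0.42 (SE 0.10, limma adjusted p = 0.0522), or 0.749-fold with an interval of 0.640 to 0.876. Its other probe set was close to this, at 370.1, 412 and 367 with CT45A1 against 426, 539 and 553 without it, by -0.39 (SE 0.13, limma adjusted p over probe sets = 0.133). PKM passed in 7 of 19 alternative settings, and its difference was below 0 in all 19. PKM encodes splice forms with different activity, and these probe sets were not assigned to a form here.

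Lactate dehydrogenase sets the exchange between pyruvate and lactate. LDHA, the subunit favoured in glycolytic cells, had 34659, 36530.4 and 28536 with CT45A1, against 38101, 36152 and 33928 without it. Its arrays overlapped, at -0.12 (SE 0.09, limma adjusted p = 0.442). LDHB, the subunit favoured in oxidative tissue, had 24765, 25448 and 23773 with CT45A1, against 26950.2, 25756 and 27444 without it. Every overexpression array lay lower, though by only -0.12 (SE 0.05, limma adjusted p = 0.246). At the other LDHB probe set the groups overlapped, at -0.09 (SE 0.06). LDHA and LDHB both lay within 0.02 of 0 after quantile normalization and after cyclic loess, at 0.018 and 0.010 for LDHA and 0.00029 and 0.0067 for LDHB.

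The kinases that steer pyruvate and phosphofructokinase did not pass either. PDK1 and PDK3, which phosphorylate pyruvate dehydrogenase and so hold pyruvate back from the mitochondria, differed by -0.08 and -0.07 at their brightest probe sets. Other PDK3 probe sets did not agree, with groups apart at -0.48, 0.26 and 0.62 and overlapping at 0.10. Those of PDK1 overlapped, at 0.50 and -0.01, and none of these passed. PFKFB3 and PFKFB4 make the sugar bisphosphate that activates phosphofructokinase. PFKFB3 differed by 0.04, with an interval of -0.15 to 0.24. PFKFB4 had 1067, 1211 and 703 with CT45A1, against 740.1, 865 and 682 without it. Overexpression replicate 3 fell among the negative arrays, and the difference was 0.35 (SE 0.18, limma adjusted p = 0.296).

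None of the oxygen-sensing genes passed. HIF1A, the oxygen-labile subunit of the first described HIF, had 16797, 18332 and 17406 with CT45A1, against 16923, 15432 and 18461 in vector cells. The groups overlapped, and the difference was 0.05 (SE 0.07, limma adjusted p = 0.727), with -0.09 after centring on the array median. EPAS1, the related subunit prominent in endothelium and lung, gave 7327, 7820.1 and 7791 on overexpression arrays against 6808, 6465 and 7726 on negative arrays, a difference of 0.13 (SE 0.07, limma adjusted p = 0.341), also with overlap. EGLN1, the main hydroxylase that marks HIF for destruction, differed by -0.04, with an interval of -0.21 to 0.13. EGLN3, a hydroxylase that is itself strongly induced by HIF in many cell types, stayed below the array median on all 6 arrays at both probe sets. At one it gave 40.9, 54.3 and 56.6 with CT45A1 against 56.1, 51.5 and 46.1 without it, and at the other 72.1, 41.3 and 63.2 in overexpression cells against 46.7, 49.4 and 63.1 in negative cells. Neither separated the groups.

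Among genes downstream of hypoxia, 12 of the 15 listed hypoxia genes were tested, the sensing genes included, and none passed, against 3.83% of all genes, with a range of -0.22 to 0.21. An unadjusted p under 0.05 was reached by 1 of the 12, against 20.9% of all genes. That one was BNIP3, a receptor that directs mitochondria to autophagy. It had 3093, 2997 and 3117 with CT45A1, against 3602, 3514 and 3635 without it. Replicates were tight and every overexpression array was lower, by -0.22 (SE 0.06, limma adjusted p = 0.0850), or 0.856-fold with an interval of 0.777 to 0.943. At the other BNIP3 probe set the groups overlapped, at 1201, 1027 and 1441 with CT45A1 and 1371, 1503 and 1114 without, a difference of -0.12 (SE 0.14). BNIP3 passed after centring on the array median, at -0.37 (limma adjusted p = 0.0103). BNIP3L, its relative in the same process, differed by -0.03, with an interval of -0.22 to 0.16.

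CA12, a carbonic anhydrase on the outer face of the membrane, was measured by several probe sets that varied widely between replicates. The brightest gave 275, 445 and 371 with CT45A1, against 362, 221 and 563 without it. Its difference was 0.0042 with an interval of -0.65 to 0.66, which leaves a change of up to 1.58-fold within the error. Another CA12 probe set differed by 2.01 (SE 0.89, limma adjusted p over probe sets = 0.235), at 62.0, 88.9 and 122 in overexpression cells against 9.86, 9.50 and 108 in negative cells. It was above the array median on 3 of 6 arrays, and negative replicate 3 lay among the overexpression arrays.

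The remaining hypoxia response genes overlapped between the groups. NDRG1, a stress-induced protein of the cytoplasm, had 1284, 1617 and 1441 with CT45A1, against 1225, 1081 and 1447 without it, a difference of 0.21 (SE 0.12, limma adjusted p = 0.340). ADM, which encodes the vasodilator peptide adrenomedullin, differed by -0.05, with an interval of -0.31 to 0.21. P4HA1 and P4HA2, catalytic subunits of the collagen prolyl hydroxylase, differed by 0.06 and 0.16. ANKRD37, an ankyrin repeat protein, and KDM3A, a histone demethylase, differed by 0.18 and -0.05. ANGPTL4, a secreted inhibitor of lipoprotein lipase, gave 124, 74.7 and 42.6 with CT45A1, against 21.7, 129 and 9.26 without it at its brighter probe set. It was above the array median on 2 arrays and was not tested, and its second probe set was below the median on all 6.

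Probe sets of one gene did not always agree in direction. Of 71 tested member probe sets, 38 lay above 0 and 33 below, and 1, that of GPI, passed when adjusted over probe sets, against 3.23% of all 27618. Of the 19 members with several tested probe sets, 11 had them on both sides of 0. More than 1.5-fold was reached by 3 of the 71, one each of CA12, HK2 and PDK3, which were higher with CT45A1 by 2.01, 0.74 and 0.62 and did not pass. Many glycolytic enzymes have processed pseudogenes, and probe sets ending in _x_at or _s_at can match several transcripts. The brightest probe sets of GPI, LDHA, LDHB, GAPDH, PGK1, PGAM1, ENO1, ALDOA and TPI1 are of these kinds, and that of PKM is not. So are those of SLC2A1, SLC2A3, PFKL, PFKM, PFKFB3, CA12, NDRG1, P4HA1 and KDM3A.

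**Figure D3:**
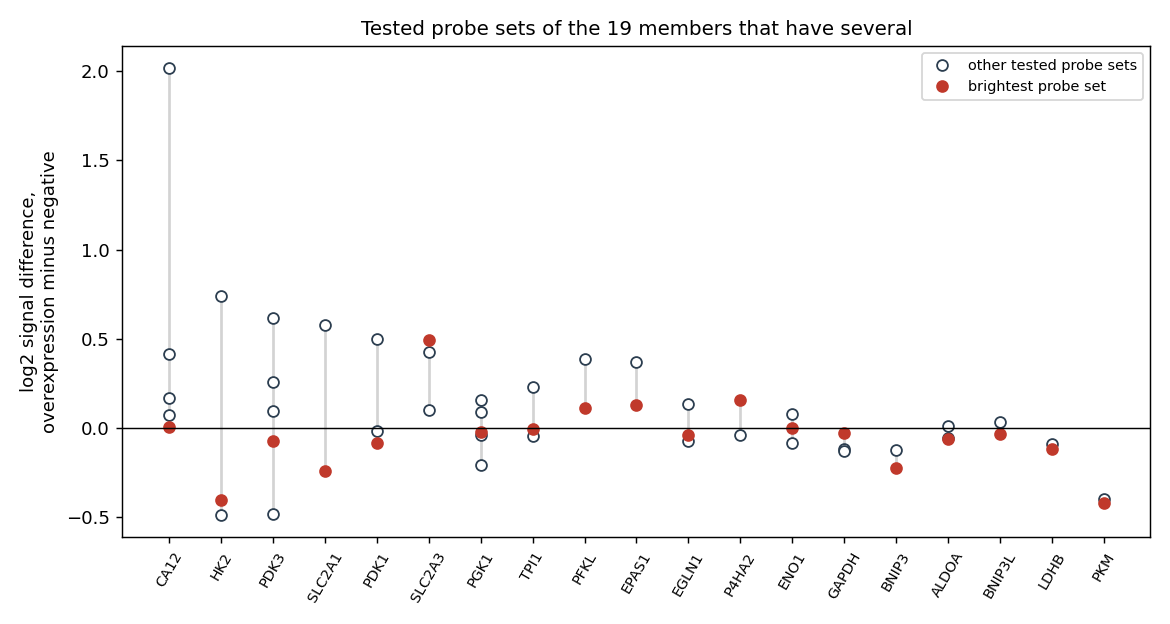
Difference in log2 signal, CT45A1 overexpression minus CT45A1 negative, at each tested probe set of the 19 members that have several, ordered by the spread within the gene. Filled points mark the brightest probe set. CA12 and HK2 have the widest spread, and PKM the narrowest.

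GAPDH also has 3 control probe sets, which read the 3′ end, middle and 5′ end of its transcript and were not tested. Signals at the 3′ end were 34862, 35599 and 31285 with CT45A1, against 34816, 35370.4 and 36637 without it. At the 5′ end they were 34559.5, 36721 and 30121 with CT45A1, against 31807, 33608 and 31143 without it. Each end alone overlapped between the groups, but their ratio did not. The 3′ over 5′ ratio was 1.01, 0.969 and 1.04 on the overexpression arrays, against 1.09, 1.05 and 1.18 on the negative ones. The ratio for actin, measured in the same way, was 1.42, 1.49 and 1.55 on overexpression arrays against 1.70, 1.64 and 1.91 on negative arrays. This ratio reflects RNA integrity and the length of labelled RNA, and it moved with the groups. As the actin ratio did not overlap between the groups, its part and that of CT45A1 cannot be told apart. A fit with it as a covariate cannot separate them either, and its values are given as a description. With the actin ratio as a covariate GPI differed by 0.55 (limma adjusted p = 0.0211) and PKM by -0.24 (limma adjusted p = 0.497), and GPI was the 1 member that passed. In the same fit EPAS1 differed by 0.38 (limma adjusted p = 0.0577), HIF1A by 0.27 (limma adjusted p = 0.176), NDRG1 by 0.61 (limma adjusted p = 0.0707) and CA12 by 1.20 (limma adjusted p = 0.0747), each larger than without the covariate and none past the threshold. LDHA differed by -0.35 (limma adjusted p = 0.191), HK2 by -0.22 (limma adjusted p = 0.624) and PFKFB4 by -0.15 (limma adjusted p = 0.812).

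**Figure D4:**
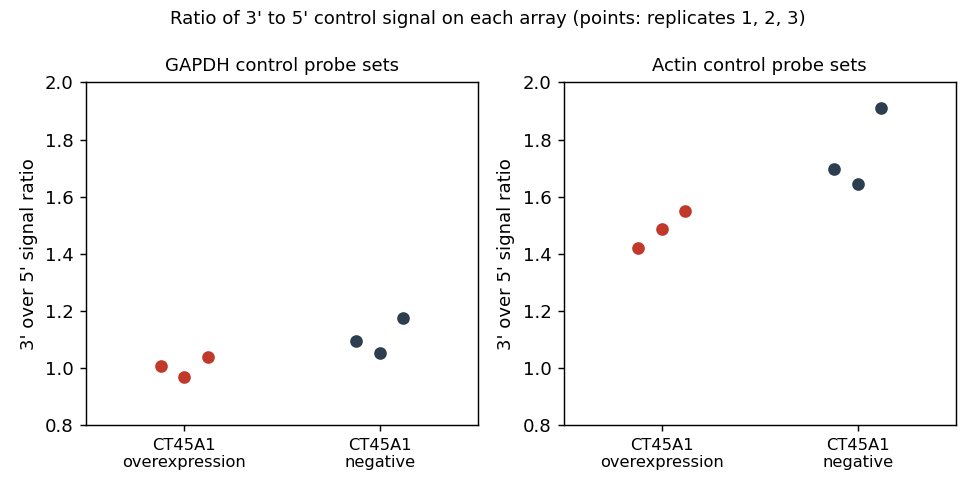
Ratio of 3′ to 5′ control signal for GAPDH and for actin on each array, with replicates 1, 2 and 3 from left to right within a group. The 3 overexpression arrays lie below the 3 negative arrays in both panels.

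Other genes of these pathways were also examined. Of 46 listed genes of glycolysis, gluconeogenesis and pyruvate use outside the set, 28 were tested, of which 1 rose and none fell, against 3.83% of all genes called, with a median of -0.0038 and 13 above 0. After centring on the array median 1 rose and 4 fell. The one that rose was PDK4, a pyruvate dehydrogenase kinase induced by fasting in many tissues, at 223, 218 and 253 with CT45A1 against 97.9, 110.1 and 131 without it. It differed by 1.04 (SE 0.20, limma adjusted p = 0.0216), and when any 1 array other than negative replicate 3 was left out its adjusted p lay between 0.0608 and 0.0850. Of 59 further hypoxia response and HIF pathway genes, 53 were tested, of which 3 rose and none fell, against 1.94% of all genes upward and 1.89% downward, with a median of 0.10 and 34 above 0. After centring on the array median 2 rose and 7 fell. EFNA1, an ephrin ligand of EPHA receptors, gave 4864, 5541 and 4035 with CT45A1, against 2364, 2667 and 2251 without it, and rose by 0.98 (SE 0.11, limma adjusted p = 0.00214). KLHL24, an adaptor of a ubiquitin ligase, gave 865, 1044 and 826 in overexpression cells against 301, 506 and 626 in negative cells, and rose by 0.99 (SE 0.23, limma adjusted p = 0.0404), with its other probe sets at 0.45 to 1.12. BHLHE40, a transcriptional repressor of the clock and of the hypoxia response, gave 5083, 5191 and 5072 in overexpression cells against 3791, 4224 and 3379.9 in negative cells, and rose by 0.44 (SE 0.08, limma adjusted p = 0.0216). EFNA1 passed whichever array was left out, KLHL24 passed only without negative replicate 3 (otherwise limma adjusted p between 0.0645 and 0.163), and BHLHE40 did not pass without overexpression replicate 1 or 2 or negative replicate 1 (limma adjusted p between 0.0771 and 0.101). With the actin 3′ over 5′ ratio as a covariate, which cannot be told apart from the groups, none of them passed. The sizes moved in different ways. PDK4 and KLHL24 differed by 1.39 (SE 0.36, limma adjusted p = 0.0598) and 1.46 (SE 0.38, limma adjusted p = 0.0619) in that fit, more than without the covariate. EFNA1 and BHLHE40 differed by less, at 0.70 (SE 0.18, limma adjusted p = 0.0544) and 0.19 (SE 0.12, limma adjusted p = 0.409). VEGFA, a textbook HIF target, differed by -0.04, with an interval of -0.24 to 0.15.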

How the data were processed

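Biotin-labelled cRNA from total RNA was read on Affymetrix 3′ arrays, 3 per group. The authors deposited 1 intensity per probe set and array on a linear scale, and the submitters' processing notes name MAS5 and affy. Their versions are not given in the sources used here. On the deposited scale the 2% trimmed mean was 500.1 on all 6 arrays, while the array medians were 83.3, 82.0 and 79.2 with CT45A1 against 72.6, 72.9 and 75.6 without it. Depth has no meaning for arrays, and their number limits the precision. Intensities were taken to log2, control probe sets were left out, and the 27618 probe sets above the array's median on at least 3 arrays were kept. Probe sets were named through the platform annotation, with symbols updated from RefSeq. Each gene was represented by its brightest kept probe set. Groups came from the sample titles.

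The comparison was fitted with limma 3.58.1 (lmFit, eBayes with a variance trend) in R 4.3.3 over all genes, two-sided, with Benjamini-Hochberg adjustment over 11895 genes or, for probe sets, over 27618. The fit was also run on simulated data with independent noise. These held no shift in scaling and no 3′/5′ ratio that moved with the groups, so the run says nothing of either. Values on all arrays are given for members past an adjusted p of 0.05, the smallest p in each role, members whose probe sets differ in sign with 1 past the threshold, and GAPDH, LDHA, SLC2A1, HIF1A and EGLN3, with others shown for their spread after their values were seen. The members, lists, named genes and alternatives were chosen with earlier results of these data known. Alternatives were other scalings, filters, variance models, probe set rules, an offset, the replicate number as a block, a covariate for the 3′/5′ ratio of actin, and leaving out each array. Annotation, promoter search and figures used Python 3.11.15, pandas 2.3.3 and matplotlib 3.10.9.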

Additional observations from a re-analysis of the deposited data

How the results depend on the processing

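Under the 19 alternatives between 0 and 7 members were called, against 1 as reported, and the count was again 1 in 4 of the 19. Centring each array on its median called 1815 of all genes, 7 members (6 of glycolysis and 1 of the hypoxia response, all lower), 12 member probe sets, 5 other glycolysis genes (1 higher, 4 lower) and 9 other hypoxia genes (2 higher, 7 lower). Centring on the median of the probe sets kept, chosen after seeing the data, called 2 members (1 of the hypoxia response), 2 member probe sets, 2 other glycolysis genes and 5 other hypoxia genes. Cyclic loess, the 75th percentile filter, an offset of 32, robust eBayes and the replicate block each called 2 members, both of glycolysis (GPI and PKM), with 2 member probe sets and 0 other glycolysis genes at the 75th percentile. Whether the replicate numbers pair the arrays was not settled, since deviations from means of 3 arrays can say little of it. Deviations of same-numbered arrays correlated at -0.011, -0.0068 and 0.10, and those of differently numbered arrays at -0.10 to 0.11. The replicate block called 3 member probe sets and gave PKM an adjusted p of 0.0372 in limma at the same difference of -0.42. No filter, no variance trend and leaving out _x_at and _s_at probe sets each called 0 members and 0 member probe sets, where the last removes GPI's only probe set. At an unadjusted p under 0.05, 7 members passed as reported. Without the trend 11 of all genes were called, with 0 other glycolysis and 0 other hypoxia genes. The mean of probe sets called 2 other glycolysis and 5 other hypoxia genes, and the actin covariate called 2 member probe sets, 0 other glycolysis and 7 other hypoxia genes (4 higher, 3 lower). Leaving out 1 array called 91 to 575 of all genes, 0 to 1 members, all of glycolysis (0 to 1), 0 to 2 member probe sets, 0 to 1 other glycolysis genes and 1 to 5 other hypoxia genes. In at least 1 alternative 24 of the 35 member differences turned sign. Quantile normalization gave LDHB 0.00029, CA12 -0.081, GAPDH 0.090 and LDHA 0.018, and cyclic loess gave them 0.0067, -0.077, 0.11 and 0.010. Centring on the array median gave EPAS1 -0.014, CA12 -0.14 and HIF1A -0.094, and centring on the kept probe sets gave CA12 -0.064 and HIF1A -0.017. An offset of 32 gave CA12 -0.0021, the mean of probe sets and leaving out _x_at and _s_at gave SLC2A1 0.17 and 0.58, and the actin covariate gave PFKFB4 -0.15. Leaving out 1 array gave CA12 -0.34 to 0.33, GAPDH -0.16 to 0.049 and HIF1A -0.014 to 0.11. P4HA2 was above 0 in 17 of 19 alternatives and as low as -0.45, and ADM below 0 in 16 of 19 and as high as 0.36. The CT45 probe sets were below the array median on all negative arrays, so their differences have no exact size and say nothing of the settings. The filter kept them through the overexpression arrays alone. Whether they pass or miss the threshold is therefore no test of the labels or of a setting, and is given as a description. The dimmer CT45 probe set missed the threshold at 3.76 (quantile), 3.73 (loess), 4.56 (actin covariate) and 3.87 (no filter, no trend, and without _x_at and _s_at). The brighter one missed it at 5.93 (no trend) and 2.98 (actin covariate). The causes were not tested. Dim probe sets carry no statement of presence, since detection calls were not used.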
